A study of Homo sapiens with 12 samples.

Results

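The genes described here are 41 named genes of the DNA replication machinery and of deoxynucleotide synthesis, out of 22650 gene symbols found in any of 12 RNA-seq libraries. They were taken by symbol from a list of helicase, origin, polymerase, clamp and nucleotide genes, without RRM2, which lies on chromosome 2 and is given beside its partner RRM1 only for reference. All 41 were listed in all 12 libraries and all 41 passed the filter on low values, so none is missing from the counts. The values are FPKM, read fragments counted per length of transcript and per sequencing depth, which scale with the RNA level of a gene per unit of its length.

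A cell copies its DNA once per cycle. In G1, the origin recognition complex with CDC6 and CDT1 loads the ring-shaped MCM2-7 helicase onto origins, and in S phase CDC45 and the GINS complex join the ring to form the active helicase. DNA polymerase alpha with primase starts each strand, polymerases epsilon and delta extend it on the sliding clamp PCNA, which the RFC complex loads, and FEN1 and LIG1 join the fragments of the lagging strand. Ribonucleotide reductase, thymidylate synthase, thymidine kinase and dUTPase keep the pool of deoxynucleotides, and E2F transcription factors, freed from RB as cells leave G1, are known activators of many of these genes. RB pathway genes are frequently altered in pancreatic ductal adenocarcinoma, the tumour from which both cell lines came.

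The study measured RNA in Panc1 and MiaPaCa2, established human cell lines of pancreatic ductal adenocarcinoma, each as wild-type cells and as cells with a knockout of ASAP2, which encodes a GTPase-activating protein for Arf proteins. The design asks what loss of ASAP2 changes in the RNA of each line. There were 3 libraries in each of the 4 groups: Panc1 wild-type, Panc1 ASAP2 knockout, MiaPaCa2 wild-type and MiaPaCa2 ASAP2 knockout. No treatment, time point or other allele is named for any group, and the sources used here give neither the kind and place of the edit nor the number of clones behind a group. Since no label tells whether the 3 libraries of a group are separate cultures, p-values cover the spread from library to library and no more. A group that is 1 clone could also differ from its wild-type line in ways unrelated to ASAP2, which the design cannot tell apart from the knockout.

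ASAP2 itself was at 38.6, 37.5 and 34.6 FPKM in Panc1 wild-type libraries 1, 2 and 3 and at 14.2, 14.5 and 12.7 FPKM in the Panc1 knockout libraries (log2 change -1.36, SE 0.07, adjusted p = 1.46e-08, by limma). It was at 13.2, 13.6 and 13.8 FPKM in the MiaPaCa2 wild-type libraries and at 12.01, 13.8 and 11.3 FPKM in the libraries labelled MiaPaCa2 knockout, where the ranges overlap (-0.13, adjusted p = 0.197; -0.20, adjusted p = 0.0316 without knockout library 2). An edit need not lower the RNA, so the level does not check the MiaPaCa2 label. Between 17958 and 19105 genes were listed per library, the FPKM summed to between 360765 and 392610, read depth is unknown, and libraries of a group correlated across genes at 0.9936 to 0.9971. In all, 8 markers of pancreatic ductal epithelium were checked: 7 reached 1 FPKM in Panc1, with CDH1 at most at 0.419, and 5 did in MiaPaCa2, where EPCAM was at 0, KRT7 at most at 0.081 and CDH1 at most at 0.020 FPKM. Their sum ran from 1279 to 1317 FPKM in wild-type and 1197 to 1306 in knockout Panc1 libraries, and from 1283 to 1333 in wild-type and 937 to 968 in knockout MiaPaCa2 libraries. Of the 7 tested in Panc1, 5 rose and 1 fell: KRT19 went from 541 to 254 FPKM (-1.09), and KRT8 (0.46), KRT18 (0.38) and SOX9 (0.40) were among those that rose. In MiaPaCa2 3 fell: KRT19 (-1.57), KRT8 (-0.50) and KRT18 (-0.31). The summed markers of blood cells, of endothelium and of acinar and islet cells reached at most 0.791, 0.048 and 0.099 FPKM, and those of fibroblasts rested on THY1, at 5.70 to 6.52 FPKM in wild-type and 15.6 to 17.3 in knockout Panc1 libraries. The part of these markers in the results below was not tested.

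Promoter stretches of 8 of the genes are printed to show what the group shares beyond its function, since letters bound by E2F factors were not used to choose it. RefSeq windows of GRCh38.p14, from 250 bases before to 50 bases after the gene's start, matched 36 of the 41 symbols by name; MCM4, MCM5, GINS4, POLD3 and DSCC1 had no entry. The E2F letters searched were TTTCCCGC, TTTCGCGC, TTTGCCGC and TTTGGCGC on both strands, with overlapping matches counted. They occurred in 19 of the 36 windows (52.8%), against 3.31% of 35116 windows of the same length and 5.58% of the windows of 9917 tested genes. The stretches below are 120 bases long, 5′ to 3′ along the gene, with matches in capitals. E2F1, MCM6, PCNA, RFC3 and UHRF1 are shown as genes with a match that fell in 1 or both lines, CDT1 as a gene with a match that moved in opposite directions, and RRM1 and FEN1 as genes without a match in the window that fell in Panc1. Their places are chr20:33686386-33686505 (minus strand) for E2F1, chr2:135876444-135876563 (minus) for MCM6, chr20:5126623-5126742 (minus) for PCNA, chr13:33818029-33818148 (plus) for RFC3, chr19:4909381-4909500 (plus) for UHRF1, chr16:88803669-88803788 (plus) for CDT1, chr11:4094565-4094684 (plus) for RRM1 and chr11:61792791-61792910 (plus) for FEN1.
E2F1: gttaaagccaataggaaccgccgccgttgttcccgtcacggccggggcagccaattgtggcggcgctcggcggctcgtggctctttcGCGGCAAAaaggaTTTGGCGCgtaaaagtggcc
MCM6: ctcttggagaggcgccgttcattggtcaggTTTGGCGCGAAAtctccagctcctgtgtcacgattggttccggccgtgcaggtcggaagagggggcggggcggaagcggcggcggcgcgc
PCNA: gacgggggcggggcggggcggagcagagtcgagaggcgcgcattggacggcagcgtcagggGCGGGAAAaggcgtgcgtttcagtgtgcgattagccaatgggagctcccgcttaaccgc
RFC3: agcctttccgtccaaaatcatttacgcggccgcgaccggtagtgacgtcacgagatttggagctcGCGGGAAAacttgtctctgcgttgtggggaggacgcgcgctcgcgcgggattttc
UHRF1: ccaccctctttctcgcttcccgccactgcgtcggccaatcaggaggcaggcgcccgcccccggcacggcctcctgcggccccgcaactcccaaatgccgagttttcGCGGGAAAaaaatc
CDT1: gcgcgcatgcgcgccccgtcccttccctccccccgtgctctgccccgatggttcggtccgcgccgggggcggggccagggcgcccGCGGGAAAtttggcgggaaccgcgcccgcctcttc
RRM1: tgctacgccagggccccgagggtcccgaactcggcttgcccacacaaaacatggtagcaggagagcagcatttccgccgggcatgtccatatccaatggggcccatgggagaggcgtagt
FEN1: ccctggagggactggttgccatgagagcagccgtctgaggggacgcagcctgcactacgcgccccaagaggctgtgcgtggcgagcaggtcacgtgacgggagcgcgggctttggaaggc

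In the E2F1 stretch the capitals mark separate matches on opposite strands, and in MCM6 a pair of matches on opposite strands shares bases, so the capitals run on as 1 block. The letters CCAAT occurred in 21 of the 36 windows (58.3%), against 34.6% of all windows and 36.8% of those of tested genes, and TTTGAA, letters of a promoter element of late cell cycle genes, in 1 of 36 (2.78%), against 15.2% of all windows and 9.32% of those of tested genes. Of the 19 genes with E2F letters, 13 fell in Panc1 and 13 in MiaPaCa2, and of the 17 without E2F letters 14 and 11 fell, beside 41.6% and 16.3% of all genes tested. A match is a description of the letters, not a measured site.

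In Panc1, the knockout libraries held less RNA of most of these genes: 31 of 41 fell, 1 rose (CDT1) and 9 did not pass the test. Among the 13340 genes tested, 41.6% fell and 21.8% rose, beside 75.6% and 2.44% of the 41 genes. A change was called by limma on log2(FPKM + 1) at a Benjamini-Hochberg adjusted p, over all genes tested, below 0.05. Adding 1 to the FPKM makes the log2 changes of genes near 1 FPKM smaller than the change in FPKM. The 41 genes summed to 1321.5, 1302.3 and 1328.4 FPKM in the wild-type and to 1060.4, 1039.8 and 1069.2 FPKM in the knockout libraries. The 3 knockout sums all lay below the wild-type sums. The median log2 change of the 41 genes was -0.35, where that of all genes tested was -0.10, which leaves -0.25 relative to all genes. In bulk RNA, fewer cells in S phase and less of an RNA per cell cannot be told apart.

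The scaling of the libraries bears on the Panc1 counts. When each library was rescaled by the median ratio of its genes, the median change of all genes became -0.01, that of the 41 genes -0.24, and 22 fell and 2 rose (CDT1 and TK1), beside 31.0% and 30.3% of all genes. The genes called as deposited but not after this scaling were MCM3, GINS1, POLD2, RFC1, RFC2, RFC5, CHAF1A, CHAF1B and E2F1. Of the 31 that fell, 26 were also called with each of the 12 libraries left out in turn, and POLD2, RFC1, CHAF1A, CHAF1B and E2F1 were not. Wild-type and knockout values did not overlap for 33 genes that were lower and 2 that were higher in Panc1 knockout, as for 45.3% and 24.7% of all genes.

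In MiaPaCa2, 26 of the 41 genes fell in the libraries labelled knockout, 1 rose (GINS4) and 14 did not pass the test, where 16.3% of all genes tested fell and 17.8% rose, beside 63.4% and 2.44% of the 41. The median change was -0.27, beside 0.01 over all genes. After median-ratio scaling 26 fell and 1 rose, beside 18.1% and 15.6% of all genes. Knockout library 2 stood apart from the others. The 41 genes summed to 1795.0, 1484.4 and 1841.6 FPKM in knockout libraries 1, 2 and 3 and to 1902.5, 1986.5 and 2008.1 FPKM in the wild-type libraries. All 3 knockout sums were below the wild-type sums, and that of knockout library 2 was the lowest. The median deviation of the 41 genes from the wild-type mean, on the log2 scale, was -0.16, -0.47 and -0.16 in knockout libraries 1, 2 and 3.

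Without MiaPaCa2 knockout library 2, 19 genes fell and 3 rose (GINS4, MCM3 and ORC6), beside 14.7% and 17.0% of all genes, and the median change was -0.16. The count was 17 without wild-type library 2 and 16 without wild-type library 3. In all, 14 of the 26 were called with each library left out in turn: MCM4, MCM5, MCM6, MCM7, ORC1, CDT1, POLE, POLE2, POLD1, RFC4, RFC5, TK1, DUT and E2F1. The other 12 lost their call without at least 1 library, and GINS4 was called each time. Values did not overlap for 24 genes lower and 1 higher in knockout libraries, as for 20.5% and 23.0% of all genes.

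**Figure D1:**
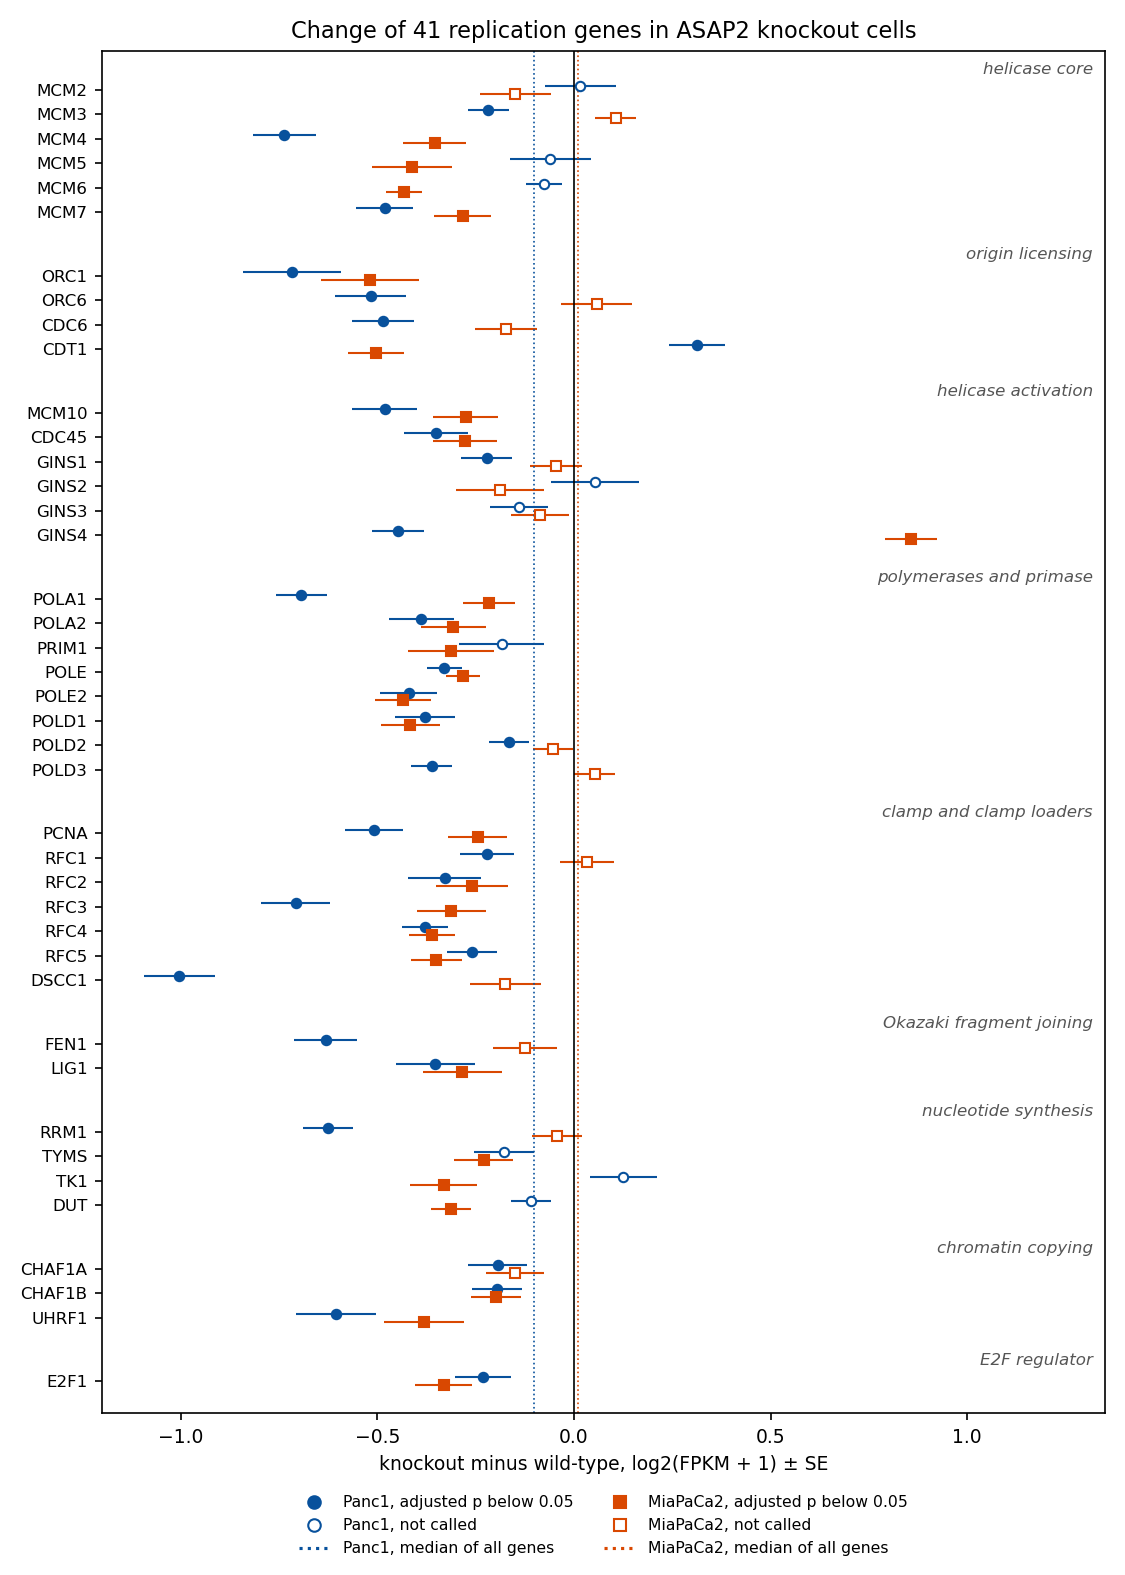
Log2 change of FPKM + 1, knockout against wild-type, of each of the 41 genes in Panc1 and in MiaPaCa2, grouped by role, with bars for the SE, filled points for called changes, open points for the rest and dotted lines for the median of all genes tested. Most points lie left of 0 in both lines, and the filled points right of 0 are CDT1 in Panc1, at 0.31, and GINS4 in MiaPaCa2, at 0.86.

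**Figure D2:**
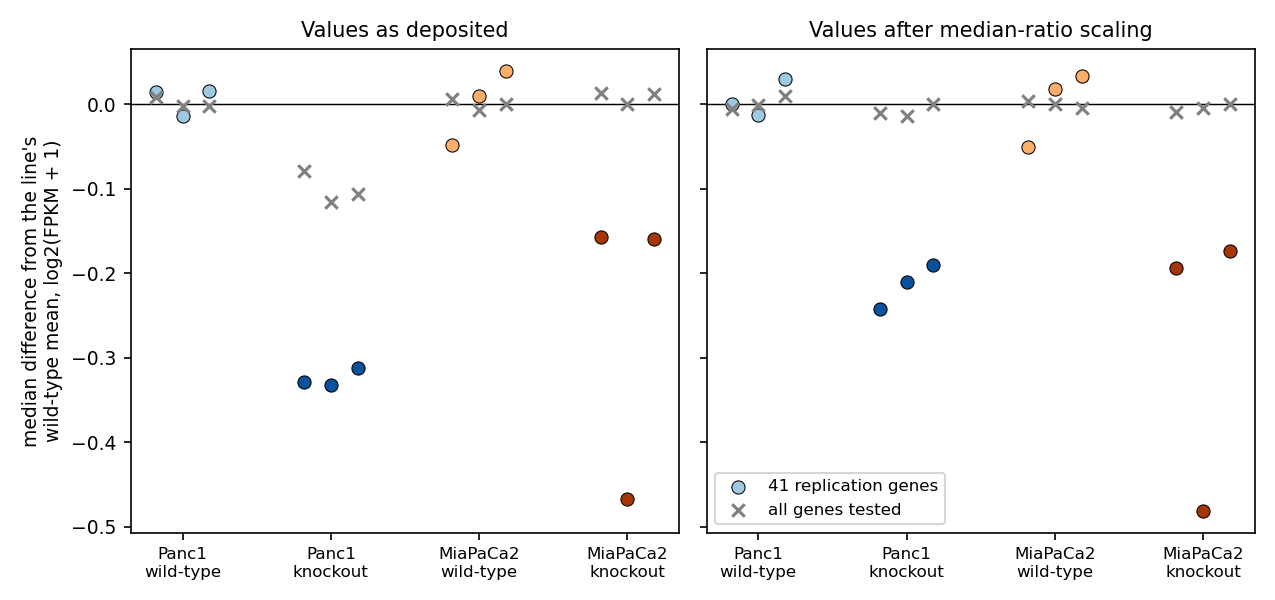
Median deviation of each library from the wild-type mean of its line on the log2 scale, as deposited and after median-ratio scaling, with circles for the 41 genes and crosses for all genes tested. The knockout circles sit below the crosses in all 6 knockout libraries in both panels, and MiaPaCa2 knockout library 2 is the lowest at -0.47 as deposited.

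In both lines together, 19 genes fell in each: MCM4, MCM7, ORC1, MCM10, CDC45, POLA1, POLA2, POLE, POLE2, POLD1, PCNA, RFC2, RFC3, RFC4, RFC5, LIG1, CHAF1B, UHRF1 and E2F1. Of all genes tested, 6.34% fell in both. The number was 15 after median-ratio scaling, beside 5.34% of all genes, and 14 without MiaPaCa2 knockout library 2, beside 6.31%. The 12 genes in all 3 of these sets were MCM4, MCM7, ORC1, CDC45, POLA2, POLE, POLE2, POLD1, PCNA, RFC3, RFC4 and UHRF1. Among them, CDC45, POLA2, PCNA, RFC3 and UHRF1 lost the MiaPaCa2 call without at least 1 MiaPaCa2 wild-type library. A further 11 genes were called lower in Panc1 alone and 6 in MiaPaCa2 alone, CDT1 and GINS4 were called in opposite directions, and MCM2, GINS2 and GINS3 were called in neither line. Whether a call in 1 line marks a difference between lines needs the test of that difference. Of the 17 genes called in 1 line alone, that test did not pass for MCM5 (0.35, adjusted p = 0.054), GINS1 (-0.18, adjusted p = 0.121), POLD2 (-0.11, adjusted p = 0.2), PRIM1 (0.13, adjusted p = 0.495), TYMS (0.05, adjusted p = 0.699) and CHAF1A (-0.05, adjusted p = 0.73), and it passed for the other 11.

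The MCM2-7 proteins form the core of the replicative helicase, 6 related subunits in 1 ring. In Panc1, MCM3, MCM4 and MCM7 fell and none rose, and in MiaPaCa2 MCM4, MCM5, MCM6 and MCM7 fell and none rose. The Panc1 share of 50% was near the 41.6% of all genes, with a median change of -0.05 relative to all genes. In MiaPaCa2 66.7% fell, beside 16.3% of all genes. MCM4 was at 66.1, 61.2 and 67.0 FPKM in the wild-type and 39.8, 37.1 and 38.5 FPKM in the knockout libraries of Panc1, and at 81.7, 89.3 and 89.4 against 69.9, 58.2 and 76.0 FPKM in MiaPaCa2. Knockout libraries were lower in both lines with no overlap, and the Panc1 mean fell by 40.6% (log2 change -0.74, SE 0.08, adjusted p = 6.36e-06). The MiaPaCa2 mean fell by 21.6% (-0.35, SE 0.08, adjusted p = 0.00488; -0.25 without knockout library 2). MCM4 differed between the lines by -0.38 (adjusted p = 0.0118), a call lost after median-ratio scaling.

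MCM6 (chr2:136597196-136634013, minus strand, hg19) fell in MiaPaCa2. It was at 44.7, 44.3 and 45.9 FPKM in MiaPaCa2 wild-type and at 33.3, 32.1 and 33.9 FPKM in knockout libraries, and at 18.8, 18.6 and 17.9 against 17.5, 16.5 and 18.4 FPKM in Panc1. The groups were apart in MiaPaCa2, where the 3 knockout libraries lay close together, and overlapped in Panc1. The MiaPaCa2 change was -0.43 (SE 0.05, adjusted p = 2.38e-05; -0.41 without knockout library 2) and the Panc1 value was -0.08 (adjusted p = 0.158). The effects differed by 0.36 (adjusted p = 0.000534). The 16 tested neighbours of MCM6 within 5 Mb had a median change of -0.13 in MiaPaCa2 and -0.12 in Panc1.

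MCM7, the most abundant of the ring's RNAs per length, went from 110.1 ± 0.972 (SD, n = 3) to 78.6 ± 2.07 FPKM in Panc1 (-0.48, adjusted p = 0.000103) and from 215 ± 10.6 to 178 ± 22.3 FPKM in MiaPaCa2 (-0.28, adjusted p = 0.0105; -0.17 without knockout library 2). MCM5 fell in MiaPaCa2 (-0.41, adjusted p = 0.00852; -0.26 without knockout library 2) and was at -0.06 in Panc1. MCM3 fell in Panc1 (-0.22, adjusted p = 0.00277) and was at 0.11 in MiaPaCa2, where it was called higher without knockout library 2 (0.17, adjusted p = 0.00638). MCM2 was at 0.02 in Panc1 and -0.15 in MiaPaCa2 and was called in neither line.

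The make-up of the ring's RNA differed between groups. Of the summed FPKM of the 6 RNAs in Panc1, MCM4 held 18.9% ± 0.794 in wild-type and 14.05% ± 0.489 in knockout libraries, while MCM2 held 15.0% ± 0.722 and 19.0% ± 0.511. In MiaPaCa2 MCM4 held 15.5% ± 0.234 and 14.4% ± 0.270. The highest subunit, MCM7, was at 5.98 times the level of the lowest, MCM6, in Panc1 wild-type and 4.51 times in knockout libraries, and at 4.79 ± 0.244 and 5.36 ± 0.541 times the lowest in MiaPaCa2.

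Origin licensing is done by ORC1 and ORC6, subunits of the origin recognition complex, with CDC6 and CDT1. ORC1, ORC6 and CDC6 fell and CDT1 rose in Panc1, and ORC1 and CDT1 fell in MiaPaCa2. In Panc1 75% fell and 25% rose, beside 41.6% and 21.8% of all genes. In MiaPaCa2 50% fell, beside 16.3%. ORC1 (chr1:52838501-52870095, minus strand, hg19), an ATP-binding subunit, was at 9.25, 10.4 and 10.01 FPKM in wild-type and 5.74, 5.01 and 6.14 FPKM in knockout libraries of Panc1, and at 11.3, 13.8 and 14.001 against 9.78, 6.77 and 10.1 FPKM in MiaPaCa2. It was lower in every knockout library of both lines, by -0.72 (SE 0.12, adjusted p = 0.000291) in Panc1 and -0.52 (adjusted p = 0.00703; -0.35 without knockout library 2) in MiaPaCa2. The effects on ORC1 differed by -0.20 (SE 0.18, adjusted p = 0.358), so a difference was not shown.

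CDT1 (chr16:88870197-88875666, plus strand, hg19), the loading factor that geminin holds in check after S phase begins, was called in opposite directions. It was at 16.4, 15.7 and 17.9 FPKM in wild-type and 19.6, 21.3 and 21.9 FPKM in knockout libraries of Panc1, and at 42.2, 47.3 and 45.2 against 30.9, 28.9 and 34.4 FPKM in MiaPaCa2. All 3 knockout libraries were above all wild-type libraries in Panc1 and below them in MiaPaCa2. The change was 0.31 (SE 0.07, adjusted p = 0.00191) in Panc1 and -0.50 (SE 0.07, adjusted p = 0.000218; -0.45 without knockout library 2) in MiaPaCa2, a difference of 0.82 (adjusted p = 3.07e-05). GMNN, which encodes geminin, fell in both lines (-0.52 and -0.22). CDT1 per GMNN went from 0.476 ± 0.0229 to 0.872 ± 0.0540 in Panc1 and from 1.41 ± 0.0982 to 1.15 ± 0.115 in MiaPaCa2 (SD, n = 3 each).

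ORC6 (chr16:46723555-46732306, plus strand, hg19) was at 13.1, 11.5 and 12.4 FPKM in wild-type and 9.10, 8.08 and 7.81 FPKM in knockout libraries of Panc1, with no overlap. In MiaPaCa2 it was at 35.1, 35.5 and 36.1 against 41.03, 31.1 and 39.98 FPKM, where knockout libraries 1 and 3 were above and library 2 below the wild-type values. The Panc1 change was -0.52 (adjusted p = 0.000297), the MiaPaCa2 value 0.06 (adjusted p = 0.679) with all libraries and 0.18 (adjusted p = 0.0476) without knockout library 2. The effects differed by -0.57 (adjusted p = 0.00222). CDC6, the ATPase that works with the origin complex, fell in Panc1 (-0.49, adjusted p = 0.000154) and was at -0.17 in MiaPaCa2 (adjusted p = 0.109).

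**Figure D3:**
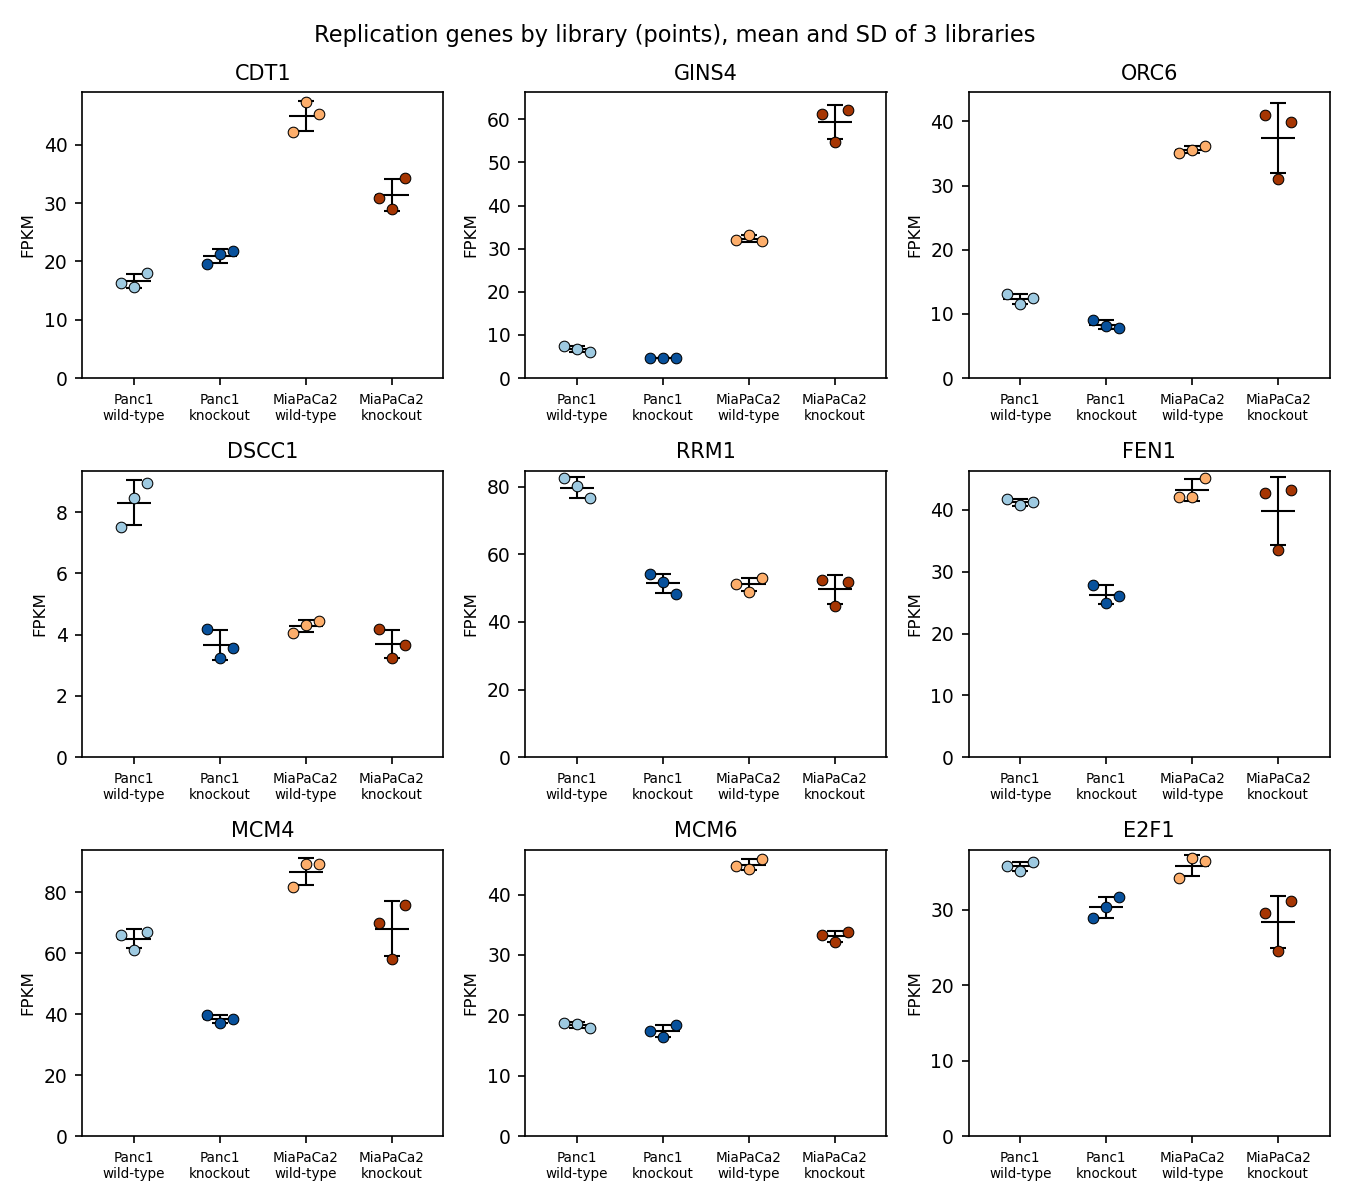
FPKM of CDT1, GINS4, ORC6, DSCC1, RRM1, FEN1, MCM4, MCM6 and E2F1 in each library of the 4 groups, with points for libraries and a dash and bar for the mean and SD. CDT1 and GINS4 move in opposite directions in the 2 lines, and DSCC1, RRM1 and FEN1 separate wild-type from knockout in Panc1 but overlap in MiaPaCa2.

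Activation of the helicase takes CDC45, MCM10 and the 4 GINS subunits. MCM10, CDC45, GINS1 and GINS4 fell in Panc1, and MCM10 and CDC45 fell and GINS4 rose in MiaPaCa2. In Panc1 66.7% fell, beside 41.6% of all genes. In MiaPaCa2 33.3% fell and 16.7% rose, beside 16.3% and 17.8%. GINS4 had the largest rise among the 41 genes in either line. It was at 32.0, 33.3 and 31.7 FPKM in MiaPaCa2 wild-type and 61.3, 54.8 and 62.1 FPKM in knockout libraries, and at 7.502, 6.63 and 6.06 against 4.72, 4.62 and 4.62 FPKM in Panc1. The groups were apart in both lines, upward in MiaPaCa2 and downward in Panc1. The MiaPaCa2 mean was 1.84-fold higher (log2 change 0.86, SE 0.07, adjusted p = 1.89e-06; 0.91 without knockout library 2), the Panc1 mean fell by 30.9% (-0.45, SE 0.07, adjusted p = 8.05e-05), and the effects differed by -1.30 (adjusted p = 4.34e-07).

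The other GINS RNAs did not follow GINS4 in MiaPaCa2, where GINS1 was at -0.04, GINS2 at -0.19 and GINS3 at -0.09, none of them called. GINS4 held 30.6% ± 0.525 of the summed FPKM of the 4 GINS RNAs in MiaPaCa2 wild-type and 47.2% ± 2.41 in knockout libraries, and 14.8% ± 1.56 and 11.4% ± 0.516 in Panc1. GINS4 per GINS1 went from 2.87 ± 0.0605 to 5.46 ± 0.281 in MiaPaCa2 and from 0.394 ± 0.0439 to 0.321 ± 0.0143 in Panc1. The 35 tested genes within 5 Mb of GINS4 had a median change of 0.09 in MiaPaCa2 and -0.10 in Panc1. In MiaPaCa2, 9 of these 35 were called higher and 3 lower. A local effect on GINS4 was not tested.

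MCM10, which helps the helicase to start, was at 10.2, 9.36 and 9.44 FPKM in wild-type and 6.85, 6.25 and 6.82 FPKM in knockout libraries of Panc1. The groups did not overlap (-0.48, SE 0.08, adjusted p = 0.000262). In MiaPaCa2 its change was -0.27 (adjusted p = 0.022), a call lost without knockout library 2 (-0.17, adjusted p = 0.0616). CDC45 fell by 0.35 in Panc1 (adjusted p = 0.00238) and by 0.28 in MiaPaCa2 (adjusted p = 0.0202; -0.16 without knockout library 2). GINS1 fell in Panc1 (-0.22, adjusted p = 0.0104), but was at 0.06 once GC content and gene length were corrected for and lost its call after median-ratio scaling. GINS2 and GINS3 were called in neither line.

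**Figure D4:**
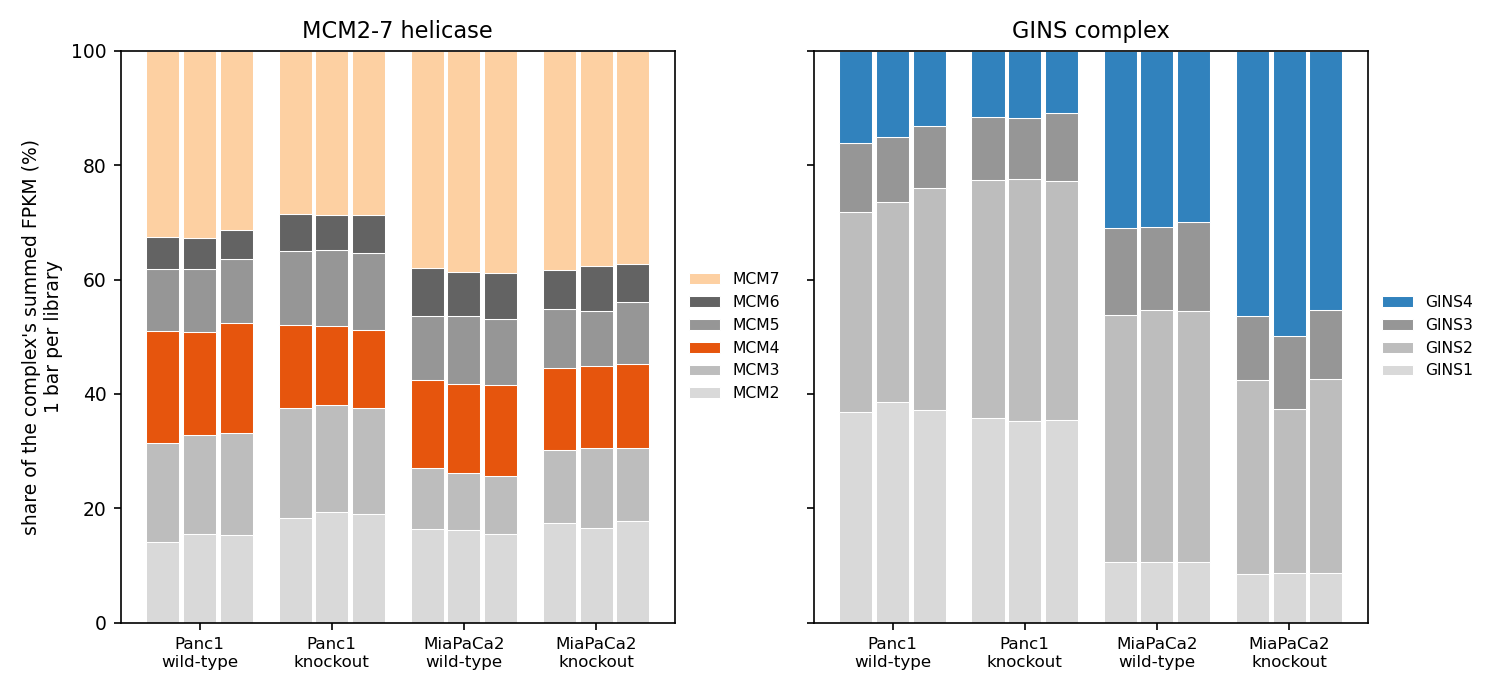
Share of each subunit in the summed FPKM of the MCM2-7 genes and of the 4 GINS genes, in percent, with 1 stacked bar per library and MCM4 and GINS4 in colour. The MCM4 share is smaller in the Panc1 knockout than in the Panc1 wild-type bars, and the GINS4 share is larger in the MiaPaCa2 knockout bars, at 45.3 to 49.9%, than in the MiaPaCa2 wild-type bars, at 30.0 to 30.9%.

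Of the polymerase and primase genes, 7 of 8 fell in Panc1, all but PRIM1, beside 41.6% of all genes. In MiaPaCa2 6 of 8 fell, all but POLD2 and POLD3, beside 16.3% of all genes. POLA1 (chrX:24711990-25015103, plus strand, hg19), the catalytic subunit of polymerase alpha, was at 4.83, 4.65 and 4.23 FPKM in wild-type and 2.46, 2.58 and 2.29 FPKM in knockout libraries of Panc1. Every knockout value was below every wild-type value, and the mean fell by 46.5% (-0.69, SE 0.07, adjusted p = 2.04e-06). In MiaPaCa2 the mean went from 16.4 ± 1.05 to 13.97 ± 0.865 FPKM (-0.22, adjusted p = 0.0226), a call lost without knockout library 2 (-0.18, adjusted p = 0.0709). Its 15 tested neighbours within 5 Mb had a median change of -0.49 in Panc1.

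POLA2, the second polymerase alpha subunit, fell by 0.39 in Panc1 (adjusted p = 0.00132) and by 0.31 in MiaPaCa2 (adjusted p = 0.013; -0.20 without knockout library 2), and POLA2 per POLA1 went from 5.87 ± 0.526 to 8.30 ± 0.772 in Panc1. PRIM1, the primase catalytic subunit, was at -0.18 in Panc1 (adjusted p = 0.158) and fell in MiaPaCa2 (-0.31, adjusted p = 0.0418), a call lost without knockout library 2 (-0.18, adjusted p = 0.149).

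POLE, the catalytic subunit of polymerase epsilon, fell by about the same amount in both lines, by 0.33 in Panc1 (adjusted p = 3.58e-05) and by 0.28 in MiaPaCa2 (adjusted p = 0.000457; -0.24 without knockout library 2). Its partner POLE2 (chr14:50110273-50155140, minus strand, hg19) was at 11.6, 12.2 and 12.8 FPKM in MiaPaCa2 wild-type and 8.99, 8.06 and 9.27 FPKM in knockout libraries, and at 9.42, 8.38 and 9.35 against 7.20, 6.34 and 6.01 FPKM in Panc1. The groups were apart in both lines, with changes of -0.43 in MiaPaCa2 (SE 0.07, adjusted p = 0.00071; -0.38 without knockout library 2) and -0.42 in Panc1 (SE 0.07, adjusted p = 0.000264). The effects on POLE2 differed by 0.01 with an SE of 0.10 (adjusted p = 0.915), and those on POLE by -0.05 with an SE of 0.06 (adjusted p = 0.533).

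POLD1, the catalytic subunit of polymerase delta, fell by 0.38 in Panc1 (adjusted p = 0.000847) and by 0.42 in MiaPaCa2 (adjusted p = 0.00134; -0.32 without knockout library 2). Of its accessory subunits, POLD2 fell by 0.17 in Panc1 (adjusted p = 0.0125), less than the median of -0.51 of its 42 tested neighbours on chromosome 7, and lost its call without Panc1 knockout library 1. POLD3 fell by 0.36 in Panc1 (adjusted p = 5.83e-05). POLD2 was at -0.05 and POLD3 at 0.05 in MiaPaCa2, and the effects differed for POLD3 (-0.41, adjusted p = 0.000444).

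The clamp and its loaders all fell in Panc1, 7 of 7, beside 41.6% of all genes. RFC1, RFC2 and RFC5 lost that call after median-ratio scaling. In MiaPaCa2 5 of 7 fell, all but RFC1 and DSCC1, beside 16.3% of all genes. PCNA (chr20:5095599-5107272, minus strand, hg19), the sliding clamp and the highest of the 41 RNAs per length in Panc1, was at 128, 126 and 126 FPKM in wild-type and 94.2, 85.6 and 86.6 FPKM in knockout libraries of Panc1. In MiaPaCa2 it was at 155, 154 and 157 against 143, 112 and 140.0 FPKM, with knockout library 2 the lowest. The groups did not overlap in either line (-0.51, adjusted p = 7.4e-05 in Panc1; -0.25, adjusted p = 0.023 in MiaPaCa2, or -0.13 without knockout library 2).

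DSCC1, a subunit of an alternative clamp loader that acts in sister chromatid cohesion, had the largest fall of the 41 genes in Panc1. It was at 7.52, 8.47 and 8.97 FPKM in wild-type and 4.18, 3.23 and 3.56 FPKM in knockout libraries of Panc1, and at 4.07, 4.32 and 4.46 against 4.18, 3.24 and 3.67 FPKM in MiaPaCa2. The Panc1 groups were apart and the MiaPaCa2 groups overlapped. The Panc1 mean fell by 56.1% (-1.003, SE 0.09, adjusted p = 1.47e-06), the MiaPaCa2 value was -0.17 (adjusted p = 0.164), and the effects differed by -0.83 (adjusted p = 0.000182). The 26 tested neighbours of DSCC1 within 5 Mb had a median change of -0.39 in Panc1.

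RFC3, a small subunit of the main loader, went from 9.32 ± 0.293 to 5.32 ± 0.186 FPKM in Panc1 (-0.71, adjusted p = 2.13e-05) and from 25.2 ± 1.05 to 20.3 ± 3.23 FPKM in MiaPaCa2 (-0.31, adjusted p = 0.0168; -0.18 without knockout library 2). Its share in the summed FPKM of RFC1 to RFC5 went from 9.11% ± 0.314 to 6.73% ± 0.165 in Panc1. RFC4 (chr3:186507669-186524847, minus strand, hg19) was at 34.3, 37.1 and 40.2 FPKM in MiaPaCa2 wild-type and 29.9, 29.0 and 27.2 FPKM in knockout libraries. It was lower in all 3 knockout libraries, by -0.36 (SE 0.06, adjusted p = 0.000652; -0.37 without knockout library 2), and the Panc1 change was -0.38 (adjusted p = 0.000127).

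The remaining loader subunits changed less in Panc1. RFC5 fell by 0.26 in Panc1 and by 0.35 in MiaPaCa2 (-0.27 without knockout library 2). RFC2 fell by 0.33 in Panc1 and by 0.26 in MiaPaCa2, the latter lost without knockout library 2 (-0.11, adjusted p = 0.0653). RFC1, the large subunit, fell by 0.22 in Panc1 (adjusted p = 0.0132), but was at 0.01 after correction for GC content and gene length and lost its call without Panc1 knockout library 3, and it was at 0.03 in MiaPaCa2.

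FEN1 and LIG1 finish the lagging strand. FEN1 (chr11:61560383-61564710, plus strand, hg19), the flap endonuclease, was at 41.8, 40.8 and 41.2 FPKM in wild-type and 27.9, 25.0 and 26.04 FPKM in knockout libraries of Panc1, and at 42.2, 42.2 and 45.3 against 42.7, 33.5 and 43.2 FPKM in MiaPaCa2. The Panc1 groups were apart, and the MiaPaCa2 groups overlapped, with knockout library 2 alone below the wild-type range. The Panc1 mean fell by 36.3% (-0.63, SE 0.08, adjusted p = 2.47e-05), the MiaPaCa2 value was -0.12 (adjusted p = 0.265) and -0.01 without knockout library 2, and the effects differed by -0.51 (adjusted p = 0.00241). LIG1, the ligase, fell in Panc1 (-0.35, adjusted p = 0.00848) and in MiaPaCa2 (-0.28, adjusted p = 0.0458), the latter lost without knockout library 2 (-0.16, adjusted p = 0.162).

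Of the 4 genes of nucleotide synthesis, RRM1 fell in Panc1 and the other 3 were not called there, while TYMS, TK1 and DUT fell in MiaPaCa2 and RRM1 was not called. The Panc1 share of 25% was below the 41.6% of all genes. The MiaPaCa2 share was 75%, beside 16.3% of all genes. RRM1 (chr11:4115937-4160162, plus strand, hg19), the large subunit of ribonucleotide reductase, was at 82.5, 80.3 and 76.6 FPKM in wild-type and 54.1, 51.8 and 48.3 FPKM in knockout libraries of Panc1, and at 51.4, 49.0 and 53.0 against 52.5, 44.7 and 51.8 FPKM in MiaPaCa2. The Panc1 groups were far apart and the MiaPaCa2 groups overlapped. The Panc1 mean fell by 35.6% (-0.63, SE 0.06, adjusted p = 3.51e-06), the MiaPaCa2 value was -0.04 (adjusted p = 0.658), and the effects differed by -0.58 (adjusted p = 0.000167).

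RRM2, the small subunit of the same enzyme and not one of the 41 genes, fell in both lines, from 91.4 to 41.2 FPKM in Panc1 (-1.13, adjusted p = 1.39e-06) and from 124 to 64.6 FPKM in MiaPaCa2 (-0.94, adjusted p = 2.96e-05). RRM2 per RRM1 therefore went from 1.15 ± 0.0662 to 0.804 ± 0.0564 in Panc1 and from 2.43 ± 0.172 to 1.29 ± 0.139 in MiaPaCa2. RRM2 (chr2:10260825-10351851, plus strand, hg19) lies near the edited gene ASAP2 (chr2:9346894-9545812, plus strand). A local effect of the edit on RRM2 was not tested.

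TK1 (chr17:76170172-76183314, minus strand, hg19), the thymidine kinase of the S phase salvage pathway, was at 86.3, 93.5 and 95.5 FPKM in MiaPaCa2 wild-type and 79.1, 61.1 and 79.3 FPKM in knockout libraries, and at 57.9, 58.5 and 60.3 against 61.1, 64.1 and 68.0 FPKM in Panc1. The groups were apart in both lines, downward in MiaPaCa2 and upward in Panc1, but the Panc1 value did not pass the test (0.13, adjusted p = 0.212). The MiaPaCa2 change was -0.33 (SE 0.08, adjusted p = 0.0098, or -0.21 without knockout library 2), and the effects differed by 0.46 (adjusted p = 0.00611). The 154 tested neighbours of TK1 within 5 Mb had a median change of 0.095 in Panc1 and -0.03 in MiaPaCa2. DUT, the dUTPase that keeps uracil out of DNA, fell in MiaPaCa2 (-0.31, adjusted p = 0.000586; -0.29 without knockout library 2) and was at -0.11 in Panc1 (adjusted p = 0.0743), and its difference between the lines (0.20, adjusted p = 0.0284) lost its call under several alternatives. TYMS, thymidylate synthase, fell in MiaPaCa2 (-0.23, adjusted p = 0.0331), a call lost without knockout library 2 (-0.12, adjusted p = 0.078), and was at -0.18 in Panc1 (adjusted p = 0.0555), with no difference between the lines shown.

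Behind the fork, CHAF1A and CHAF1B, the large and middle subunits of the histone chaperone CAF-1, and UHRF1, which brings the DNA methyltransferase DNMT1 to copied DNA, all fell in Panc1, and CHAF1B and UHRF1 fell in MiaPaCa2. Of all genes, 41.6% fell in Panc1 and 16.3% in MiaPaCa2. UHRF1 (chr19:4903092-4962165, plus strand, hg19) was at 22.4, 21.8 and 21.2 FPKM in wild-type and 16.1, 12.8 and 13.2 FPKM in knockout libraries of Panc1, and at 42.6, 49.0 and 46.8 against 37.7, 29.3 and 39.1 FPKM in MiaPaCa2. It was lower in every knockout library of both lines (-0.61, SE 0.10, adjusted p = 0.000243 in Panc1; -0.38, adjusted p = 0.013 in MiaPaCa2). The MiaPaCa2 change was -0.26 without knockout library 2, and the call was lost without wild-type library 2. CHAF1A and CHAF1B fell by 0.19 and 0.20 in Panc1. The CHAF1A call was lost with any Panc1 library left out, and that of CHAF1B without Panc1 wild-type library 1 or knockout library 2. CHAF1B also fell by 0.20 in MiaPaCa2, which was not called without knockout library 2 (-0.12, adjusted p = 0.0907).

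E2F1 (chr20:32263283-32274191, minus strand, hg19), the transcription factor, was at 35.7, 35.1 and 36.3 FPKM in wild-type and 28.9, 30.3 and 31.7 FPKM in knockout libraries of Panc1. In MiaPaCa2 it was at 34.2, 36.9 and 36.4 against 29.6, 24.5 and 31.1 FPKM. It was lower in all 6 knockout libraries, by -0.23 in Panc1 (SE 0.07, adjusted p = 0.0136), a call lost after median-ratio scaling and without Panc1 knockout library 1, and by -0.33 in MiaPaCa2 (SE 0.07, adjusted p = 0.00392; -0.23 without knockout library 2). The wild-type lines held nearly the same level of it, at 35.7 ± 0.607 and 35.8 ± 1.43 FPKM.

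Over all 41 genes, the test of the difference between the knockout effects, Panc1 minus MiaPaCa2, called 17: 13 with the lower and 4 with the higher change in Panc1, where 37.4% and 20.0% of all genes were called. The 4 were CDT1, TK1, MCM6 and DUT. After median-ratio scaling it called 7 and 5, beside 26.4% and 27.6% of all genes, and without MiaPaCa2 knockout library 2 it called 20 and 3, beside 37.9% and 19.7%. The 8 genes called in the same direction under all 25 alternatives tried were MCM6, ORC6, CDT1, GINS4, DSCC1, FEN1, RRM1 and TK1. Both effects share no library, but each rests on 3 libraries a group.

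The wild-type lines themselves differed in level. Panc1 wild-type was lower than MiaPaCa2 wild-type for 31 genes, higher for 7 and not called for MCM3, FEN1 and E2F1, beside 40.9% and 41.8% of all genes, and the median log2 difference was -0.64. Values did not overlap for 31 genes lower and 8 higher in Panc1, as for 42.1% and 42.8% of all genes. The median of the 41 means was 17.1 FPKM in Panc1 wild-type and 33.1 FPKM in MiaPaCa2 wild-type libraries. This compares 1 line with 1 line, so it describes these lines.

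GINS4 was the furthest apart, at 6.73 ± 0.726 FPKM in Panc1 and 32.3 ± 0.836 FPKM in MiaPaCa2 wild-type libraries (-2.11, SE 0.07, adjusted p = 5.43e-12). POLA1 (-1.64), GINS3 (-1.46) and ORC6 (-1.46) came next, with no overlap. GINS3 was at 5.57, 4.95 and 5.01 FPKM in Panc1 and 15.9, 15.7 and 16.5 FPKM in MiaPaCa2 wild-type libraries. In the other direction stood DSCC1 (0.82, adjusted p = 2.17e-06), DUT (0.75), RRM1 (0.63) and PRIM1 (0.63). DUT was at 42.0, 39.8 and 44.5 FPKM in Panc1 and 23.4, 25.0 and 25.3 FPKM in MiaPaCa2 wild-type libraries, and PRIM1 at 15.9, 15.7 and 14.8 against 10.97, 8.60 and 9.58 FPKM. All 3 Panc1 values of each were above all 3 MiaPaCa2 values.

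In the order of levels per length, PCNA was the highest and POLA1 the lowest of the 41 genes in both Panc1 groups, and MCM7 was the highest and DSCC1 the lowest in both MiaPaCa2 groups. Of the 40 pairs of neighbours in that order, 18 (wild-type) and 16 (knockout) did not overlap in Panc1, against 17 and 4 in MiaPaCa2, so most neighbours in the order could not be separated.

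**Figure D5:**
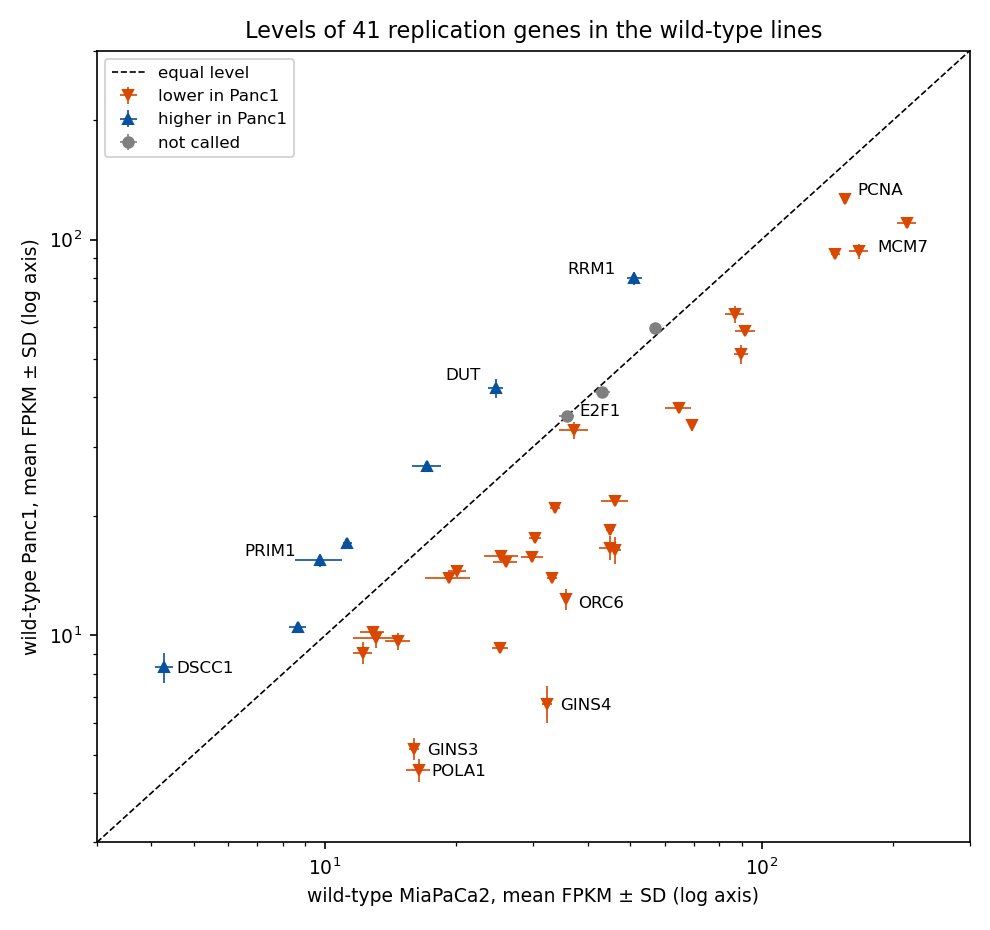
Mean FPKM of each of the 41 genes in MiaPaCa2 and Panc1 wild-type libraries on log axes, with bars for the SD of 3 libraries, triangles for the called direction and a dashed line at equal level. Most genes lie on the MiaPaCa2 side of the line, GINS4 furthest from it at 6.73 and 32.3 FPKM, and DSCC1, DUT and RRM1 lie on the Panc1 side.

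Lists of related genes outside the 41 were counted the same way, beside 41.6% of all genes lower and 21.8% higher in Panc1 and 16.3% lower and 17.8% higher in MiaPaCa2. Of 34 other replication factors, 24 fell (70.6%) and 3 rose (8.82%) in Panc1, and 11 fell (32.4%) and 1 rose (2.94%) in MiaPaCa2. DBF4, the activator of the CDC7 kinase, was at 13.6, 13.6 and 12.2 FPKM in wild-type and 6.96, 6.25 and 5.55 FPKM in knockout libraries of Panc1, with no overlap (-0.96, adjusted p = 8.61e-07). ORC5, another origin complex subunit, fell by 0.91 in Panc1. POLE4, a small subunit of polymerase epsilon, was called in opposite directions, at 0.39 in Panc1 and -0.33 in MiaPaCa2.

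Of 35 other nucleotide synthesis enzymes, 18 fell (51.4%) and 10 rose (28.6%) in Panc1, close to the 41.6% and 21.8% of all genes. After median-ratio scaling 12 fell and 15 rose, beside 31.0% and 30.3% of all genes. In MiaPaCa2 14 fell (40%) and 2 rose (5.71%), beside 16.3% and 17.8%. IMPDH2, the rate-limiting enzyme of guanine nucleotide synthesis, rose in Panc1 (0.56) and fell in MiaPaCa2 (-0.25), and CAD, which starts pyrimidine synthesis, did likewise (0.18 and -0.47). Among 9 other genes of chromatin copying, 8 fell in Panc1 (88.9%, beside 41.6%) and 6 fell (66.7%, beside 16.3%) and 2 rose in MiaPaCa2, where 3 fell without knockout library 2. PCLAF, a PCNA-binding factor, fell by 0.66 and 0.31, and DNMT1 by 0.27 and 0.30, in Panc1 and MiaPaCa2.

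Of 22 genes of the E2F, RB and cyclin group that controls entry into S phase, 13 fell (59.1%) and 3 rose (13.6%) in Panc1, beside 41.6% and 21.8% of all genes. In MiaPaCa2 9 fell (40.9%) and 5 rose (22.7%), beside 16.3% and 17.8%. MYBL2, a transcription factor of the late cell cycle, was at 71.5, 73.7 and 74.2 FPKM in wild-type and 97.2, 106 and 107 FPKM in knockout libraries of Panc1, and at 120.5, 128 and 126 against 91.7, 76.4 and 91.6 FPKM in MiaPaCa2. Like CDT1, it was higher in every Panc1 and lower in every MiaPaCa2 knockout library (0.49 and -0.53). CCNE2, cyclin E2, fell by 0.92 and 0.30, and LIN9, a subunit of the complex that works with MYBL2, by 0.92 and 0.37. E2F5 rose in MiaPaCa2 (0.89) from 1.65, 1.22 and 1.15 FPKM in wild-type to 2.84, 3.63 and 3.56 FPKM in knockout libraries and fell in Panc1 (-0.25).

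All 9 replication checkpoint genes fell in Panc1, beside 41.6% of all genes, and 7 of 9 after median-ratio scaling. In MiaPaCa2 2 fell (22.2%, beside 16.3%): CLSPN, the adaptor claspin (-0.84 and -0.42), and CHEK1, the kinase it serves (-0.66 and -0.20). Of 20 mitosis genes, which act after replication is over, 16 fell (80.0%, beside 41.6%) and 1 rose in Panc1, and 11 fell (55.0%, beside 16.3%) in MiaPaCa2, 8 without knockout library 2. BUB1, a kinase of the spindle checkpoint, fell by 0.49 in Panc1 and by 0.50 in MiaPaCa2. The sources used here give no cell cycle distribution of the cultures.

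Genes near each other on a chromosome moved together in places, so each of the 41 was set beside the tested genes within 5 Mb of it. Of the 41, 31 lay below the median of their neighbours in Panc1 and 37 in MiaPaCa2, with a median distance of -0.23 and -0.27. In Panc1, the genes of chromosome 7 had a median change of -0.25 relative to the genes of the other chromosomes, and POLD2, MCM7 and RFC2 lie there. In MiaPaCa2, the genes of chromosome 2 were at -0.17 relative to those of the other chromosomes. MCM6 lies there, as do RRM2, POLE4, CAD and BUB1 outside the 41. The part of these shifts in the changes of single genes was not tested. With the members on chromosomes 2, 6 and 7 left out, 27 of the remaining 36 genes fell in Panc1 and 23 of 36 in MiaPaCa2. Of all genes, 41.6% and 16.3% fell. In Panc1, chromosome 6 was at 0.11 relative to the other chromosomes. Chromosomes X (-0.20) and 13 (-0.14), with POLA1 and RFC3, were kept. So were chromosome 17 (0.15), with CDC6 and TK1, and chromosome 20 (0.15), with GINS1, PCNA and E2F1. These counts therefore do not cover every shift of a chromosome.

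Some of the 41 values can hold reads of other genes. TYMS shares 967 exon bases with ENOSF1, MCM7 392 with AP4M1, GINS1 259 with NINL, RFC5 186 with WSB2 and PRIM1 132 with HSD17B6 on the opposite strand. On the same strand PRIM1 shares 139 with NACA, CHAF1B 89 with MORC3 and FEN1 49 with FADS2. Opposite-strand reads are told apart by stranded counting alone, and the sources used here give no word on strand in counting. DUT has 8 pseudogenes by name, PCNA 3 and TYMS 2, so their levels are uncertain to the extent that reads were shared.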

How the data were processed

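RNA was measured in 12 libraries of total RNA, 3 in each of 4 groups, sequenced on a BGISEQ-500 per the labels' protocols. The authors deposited FPKM per gene symbol, 1 file per library. Per the submitters' processing notes, reads were aligned with TopHat2 2.0.14 to hg19 and FPKM was computed with STAR 2.5.2a. Some of the lowest FPKM values stood on steps, as those of KDR at 0, 0.008 and 0.016. Read depth was not estimated from such steps, and no count test was run. A symbol not listed in a library was taken as 0.

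The 13340 genes whose mean reached 1 FPKM in either line were tested with limma 3.58.1 (R 4.3.3; lmFit, contrasts.fit, eBayes with trend, two-sided) on log2(FPKM + 1), with 4 group means and 8 residual degrees of freedom, and p-values were adjusted by Benjamini-Hochberg over all of them. Changes are called at an adjusted p below 0.05. The fit was tested on simulated data. Coordinates of genes are those of the GENCODE annotation on GRCh37 (hg19), and promoter windows are RefSeq's on GRCh38.p14, used for letters only. Alternatives were other scalings (TPM scale, median ratio, quantile), pseudocount 0.1, a filter of 5 FPKM, no filter, genes in all 12 libraries, no trend, array weights, each line alone, a loess correction for GC content and length (12303 genes), a replicate block, and leaving out each library.

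The genes, the lists and the tests were chosen with earlier results of these data known. Values in every library are given, in each line and role, for the called gene with the largest change and no overlap, for the 6 largest called differences between the lines, for genes called in opposite directions and for the 4 largest wild-type differences in each direction, and for further genes chosen after their values were seen (PCNA). Of related genes, the 3 with the largest called change in each list and line could be named, and others named were chosen after their values were seen (GMNN).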

Additional observations from a re-analysis of the deposited data

Results flagged for a closer look

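The test of the difference between the knockout effects (Panc1 minus MiaPaCa2, log2 scale, limma with adjustment over 13340 genes) called 17 of the 41 genes. The shares called lower and higher, 31.7% and 9.76%, were below the 37.4% and 20.0% of all genes. Each of the 17 is given with its difference. It was -1.30 for GINS4, -0.83 for DSCC1, 0.82 for CDT1, -0.58 for RRM1, -0.57 for ORC6, -0.51 for FEN1, 0.46 for TK1 and 0.36 for MCM6. These 8 were called in the same direction in all 25 alternatives.

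The other 9 lost the call under at least 1 alternative. The difference was -0.48 for POLA1, -0.41 for POLD3, -0.40 for RFC3, -0.38 for MCM4, -0.32 for MCM3, -0.31 for CDC6, -0.26 for PCNA, -0.25 for RFC1 and 0.20 for DUT. With single libraries left out, the calls of CDC6, PCNA, RFC1 and DUT were lost at least once.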

How the results depend on the processing

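Counts of genes that rose are small and moved most as a ratio, from 1 to at most 3. Counts of genes that fell moved by more genes. They ran from 22 to 36 in Panc1, against 31 in the main fit, and from 16 to 27 in MiaPaCa2, against 26. In Panc1 knockout libraries 2 genes were higher instead of 1 with median-ratio scaling, with array weights and with Panc1 fitted alone, and 3 with median-ratio scaling without MiaPaCa2 knockout library 2, an alternative chosen after seeing the data. In MiaPaCa2 2 were higher with quantile normalization, 3 with array weights and 2 with that added alternative, and 17 instead of 26 were lower with the line fitted alone. The median change of the 41 genes in Panc1 was -0.24 with median-ratio scaling, with or without that library, and -0.22 with quantile normalization, instead of -0.35.

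With single libraries left out, 28 to 32 genes were lower and 1 to 2 higher in Panc1 knockout, 16 to 26 lower and 1 to 3 higher in MiaPaCa2 knockout, 13 to 23 differed between the lines, and 29 to 31 were lower and 7 higher in wild-type Panc1. The median change ran from -0.36 to -0.33 in Panc1 and from -0.32 to -0.16 in MiaPaCa2. After correction for GC content and length, with or without the replicate block, GINS1 was at 0.064 and RFC1 at 0.014 in Panc1, and the difference between lines of RFC1 at 0.0071; the cause was not tested.

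A pairing by replicate number was not seen: deviations of same-numbered libraries correlated at 0.0173, 0.0345 and 0.0777 in Panc1 and at -0.127, -0.165 and -0.00185 in MiaPaCa2. Libraries of unlike number ran from -0.0966 to 0.0579 in Panc1 and from -0.192 to 0.254 in MiaPaCa2. With 3 libraries a group, these values cannot show that the samples were unpaired. With a replicate block 32 genes were lower and 1 higher in Panc1, 24 lower and 1 higher in MiaPaCa2, 16 differed between lines, and 28 were lower and 7 higher in wild-type Panc1. Libraries of unknown depth and 3 per group limit the precision.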
